A study of Mus musculus with 10 samples.

Results

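A set of 10 genes that mark vessels other than the capillaries and arteries was followed in cardiac endothelial cells (ECs) of mice fed a control or a ketogenic diet. They were chosen by name: Nr2f2, Ackr1, Bgn and Plvap as venous or fenestrated markers, Prox1, Reln, Mmrn1 and Pdpn as lymphatic markers, and Npr3 and Cytl1 as endocardial markers. All 10 were found among the 46983 genes of the deposited count table, and all 10 were among the 15949 genes with enough reads to be tested. Wild-type male C57BL/6J mice were 8 weeks old at random assignment and ate their diet for 14 days, with 5 mice on the control diet (11.6% of energy as fat) and 5 on the ketogenic diet (89.5% of energy as fat). Hearts were digested enzymatically and CD31+ cells were pulled out with antibody-coated magnetic beads, and 1 RNA library was made per mouse. CD31 is present on ECs of every vessel type, so capillary, arterial, venous, lymphatic and endocardial cells enter the same tube, and each value is a level over that mixture. In such a mixture, fewer cells of one type and less RNA per cell of that type cannot be told apart.

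Veins, lymphatic vessels and the endocardium are small parts of the cardiac endothelium, which is mostly capillary. Venous identity is held by the transcription factor Nr2f2 (COUP-TFII), which represses arterial genes, and venules are the site where leukocytes leave the blood. Lymphatic ECs arise from veins when Prox1 is switched on, and cardiac lymphatics drain fluid and immune cells from the muscle. The endocardium lines the chambers and valves and shares several markers with the veins. The comparison asks whether the levels of their marker genes differed after 14 days on the ketogenic diet.

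None of the 10 markers passed the test between the diets (edgeR quasi-likelihood test, Benjamini-Hochberg adjustment over 15949 genes, adjusted p under 0.05). Over all tested genes, 1.34% were called, 0.809% higher and 0.527% lower on the ketogenic diet (213 genes, 129 and 84). The members' adjusted p-values ran from 0.247 to 0.812. Before adjustment, 2 of 10 had p under 0.05, Pdpn with a higher and Plvap with a lower level on the ketogenic diet, where 17.8% of all tested genes had one, 8.57% higher and 9.26% lower. The log2 fold changes, ketogenic minus control, lay between -0.47 and 0.41 with a median of -0.10, where the median over all tested genes was -0.0057. The values of the diets overlapped for all 10 markers, and they did not overlap for 4.34% of all tested genes. DESeq2's Wald test also called 0 of the 10.

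Between 10885154 and 12710861 reads per mouse fell on genes. The libraries held RNA of 10 pan-endothelial genes at a summed level of 5387 to 5742 CPM (reads scaled to a common library size) on the control diet and 5199 to 5742 on the ketogenic diet. That sum followed library size (r = -0.97 over the 10 mice, a description), several of its genes having nearly fixed counts like those described below for Bgn, so its likeness between the diets is no check of purity. RNA of other heart cells was also present. The 8 fibroblast markers summed to between 587 and 702 CPM over the 10 mice and the 8 pericyte and smooth muscle markers to between 2435 and 2715. The 8 cardiomyocyte markers summed to 497 to 621 CPM on the control diet and 579 to 847 on the ketogenic diet. All 8 fold changes were above 0, and 0 were called. An unadjusted p under 0.05 was found for 6, where 8.57% of all tested genes had one with a higher level. None of those 8 was at 0 in any mouse.

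**Figure D1:**
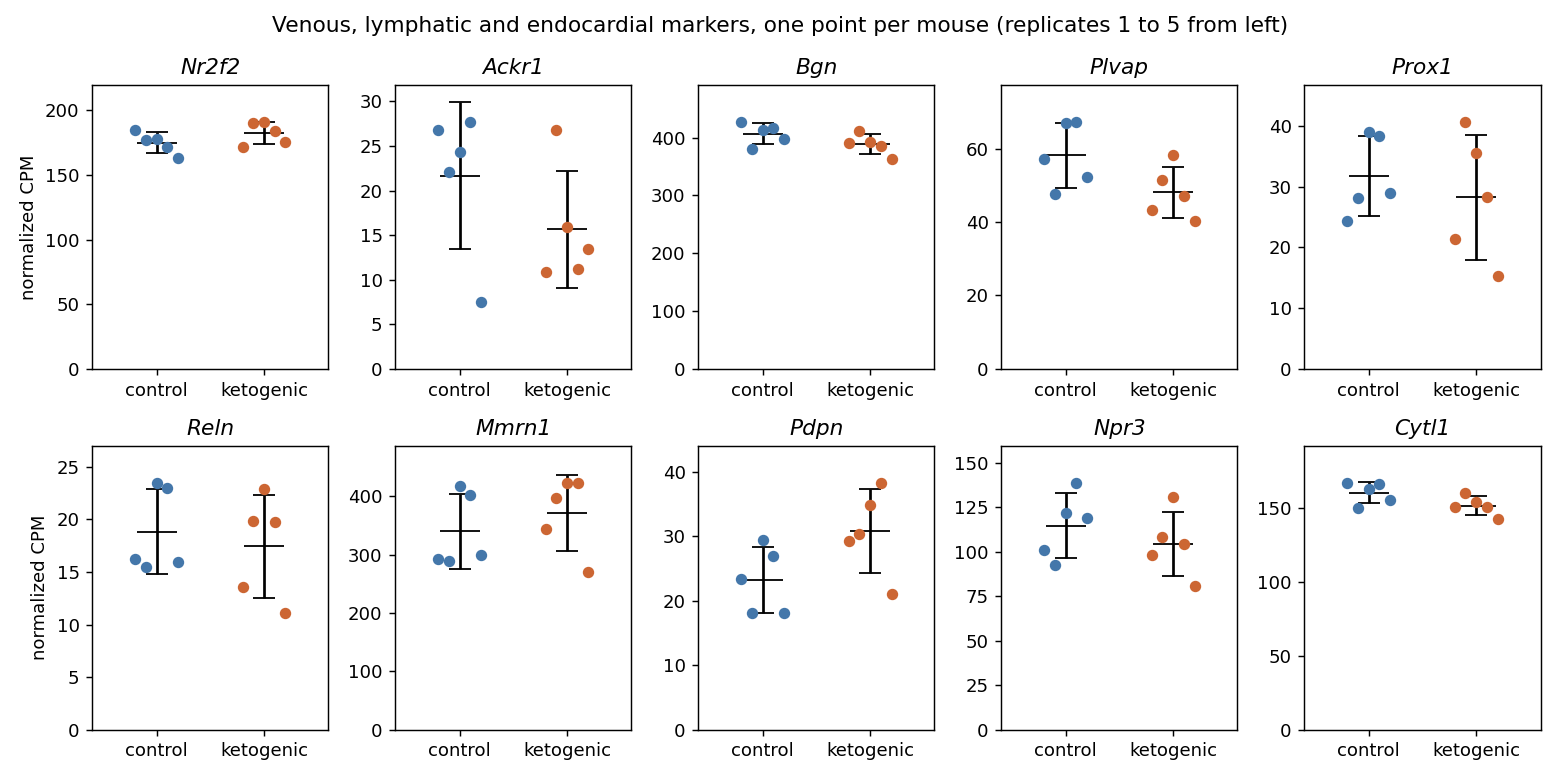
Level of the 10 markers in every mouse, in TMM-normalized CPM on a linear axis from 0, with the control diet in blue and the ketogenic diet in orange (the wide bar is the mean of 5 mice and the capped line is 1 SD either way). In every panel the points of the diets overlap, with the widest scatter for Ackr1 and the narrowest for Nr2f2, Bgn and Cytl1.

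**Figure D2:**
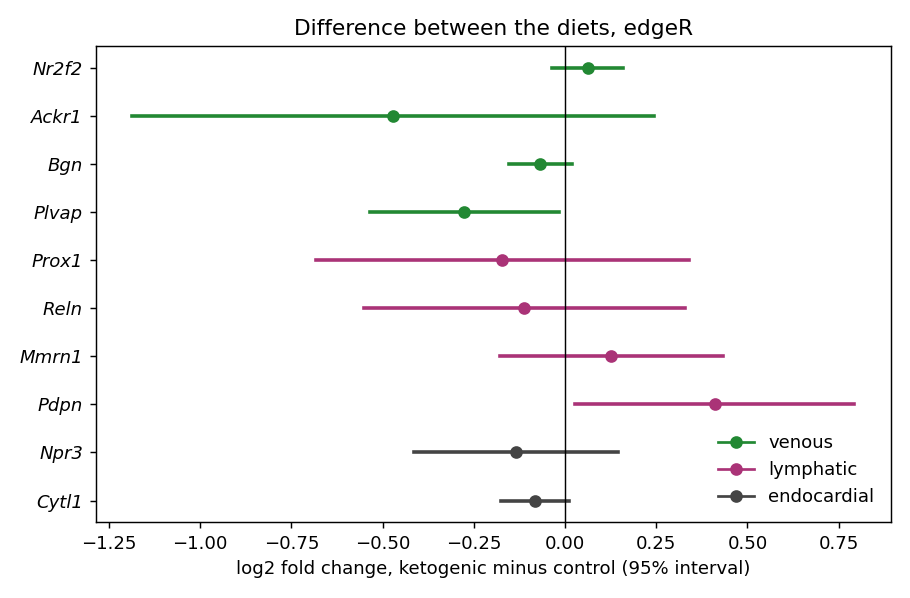
Log2 fold change of each marker, ketogenic minus control, with its 95% interval from edgeR, colored by vessel type. The intervals of Plvap (-0.54 to -0.02) and Pdpn (0.03 to 0.79) lie on one side of 0 before adjustment, and those of the other 8 markers span it.

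Nr2f2 (ENSMUSG00000030551.13, chr7:70351944-70366735, minus strand, GRCm38), the transcription factor of venous identity, had the smallest spread of the venous markers apart from Bgn. The control mice had 185, 177, 177, 172 and 163 CPM, and the ketogenic mice 171, 190.4, 191, 184 and 175 CPM, so 2 ketogenic mice lay above every control mouse and the rest were interspersed. The log2 fold change was 0.06 ± 0.0442 (SE, n = 5 per diet, edgeR adjusted p = 0.492), with a 95% interval of -0.03 to 0.16. Its coefficient of variation over the 10 mice was 5.02%. A gene on the other strand, B130024G19Rik, overlaps its exons and had 143 to 250 reads per mouse, and because the library kit does not record strand, reads in the overlap cannot be assigned to one of them.

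Ackr1 (ENSMUSG00000037872.5, chr1:173331886-173333750, minus strand), the atypical chemokine receptor that venular ECs use to carry chemokines across the vessel wall, varied most. The control mice had 26.7, 22.1, 24.3, 27.7 and 7.52 CPM and the ketogenic mice 10.9, 26.8, 16.0, 11.2 and 13.5 CPM. The levels of 4 control mice and 1 ketogenic mouse were above 20 CPM, and control mouse 5 was the lowest of all 10. The means were 21.7 ± 8.20 and 15.7 ± 6.55 CPM (SD, n = 5 per diet), the log2 fold change was -0.47 ± 0.329 (SE) with an interval of -1.19 to 0.25, and edgeR's adjusted p was 0.482. The highest mouse was 3.68-fold above the lowest, with 87 to 306 reads behind the values. A gene on the same strand, Cadm3, overlaps the exons of Ackr1 and had 3 to 36 reads per mouse, and reads in that overlap cannot be assigned to one of them. Each mouse left out in turn moved the log2 fold change between -0.75 (without ketogenic mouse 2) and -0.36 (without ketogenic mouse 1). Without control mouse 5 it was -0.69 with an adjusted p of 0.187 by edgeR.

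Plvap (ENSMUSG00000034845.5, chr8:71497765-71511752, minus strand) encodes the protein of the diaphragms that close fenestrae and caveolae, found in venous, fenestrated and endocardial ECs and little in mature heart capillaries. Its level was 57.1, 47.5, 66.9, 67.2 and 52.1 CPM in the control mice and 43.3, 51.5, 58.2, 47.0 and 40.3 CPM in the ketogenic mice. In all, 3 ketogenic mice lay below every control mouse, and 2 control mice above every ketogenic mouse. The means were 58.2 ± 8.80 and 48.1 ± 7.02 CPM (SD, n = 5 per diet), a log2 fold change of -0.28 ± 0.119 (SE; edgeR p = 0.0391, adjusted p = 0.251; two-sided exact permutation test, p = 0.0873). With a cardiomyocyte marker score as a covariate (the mean of the markers' standardized log2 CPM in each mouse) the log2 fold change was -0.57 (adjusted p = 0.0988, edgeR).

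Bgn (ENSMUSG00000031375.17, chrX:73483602-73495933, plus strand), a small leucine-rich proteoglycan of the matrix that is made by ECs of larger vessels and by fibroblasts, stood at 427, 379, 413, 417 and 397 CPM in the control mice and 391, 411, 391, 385 and 363 CPM in the ketogenic mice. The log2 fold change was -0.07 ± 0.0401 (SE, n = 5 per diet, edgeR adjusted p = 0.408). These CPM values hide a nearly fixed count. The reads themselves numbered 4597, 4627, 4641, 4607 and 4594 in the control mice and 4609, 4572, 4637, 4605 and 4631 in the ketogenic mice, an SD of 21.8 where counting noise alone gives 67.9 (the square root of the mean).

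The same held for one endocardial marker. Cytl1 (ENSMUSG00000062329.4, chr5:37735519-37739820, plus strand), a small secreted protein used as a marker of the endocardium, had 1800, 1833, 1832, 1840 and 1798 reads in the control mice and 1776, 1780, 1828, 1806 and 1816 in the ketogenic mice. Their SD was 22.6 where counting noise gives 42.6. In CPM the mice had 167, 150.2, 163, 167 and 155 on the control diet and 151, 160.0, 154, 151 and 142 on the ketogenic diet, a log2 fold change of -0.08 ± 0.0431 (SE, n = 5 per diet, edgeR adjusted p = 0.347).

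A read of 50 bases can start at a limited number of places on a transcript, counted here over both strands of the principal transcript. For Bgn that number is 4740 (transcript of 2419 bases) and for Cytl1 1850 (974 bases), and the counts came to between 96.5% and 97.9% of it for Bgn and between 96.0% and 99.5% for Cytl1. Across the tested genes, 103 had mean counts at 90 to 100% of their start positions, and in 60.2% of these the variance of the counts was below their mean. The share was 41.7% of the 84 genes with counts above 100% of that number, which is therefore not a strict bound, and 6.83% of the 9877 genes at under 10%. With a fixed count, CPM falls as the library grows: the correlation of log2 CPM with the log2 effective library size over the 10 mice was -0.997 for Bgn and -0.971 for Cytl1, given as a description. Whether reads with the same start were removed is not given in the sources used here, and the part of such a step was not tested. With counts corrected for the number of start positions, a step added after the data had been seen, the log2 fold changes were -0.09 for Bgn and -0.25 for Cytl1 (adjusted p = 0.360 and 0.202, edgeR). The correction grows steeply near full use, and counts were first cut to a cap just under the number of positions. For Cytl1 some control counts and no ketogenic count exceeded that cap, so its corrected value depends on the cap.

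**Figure D3:**
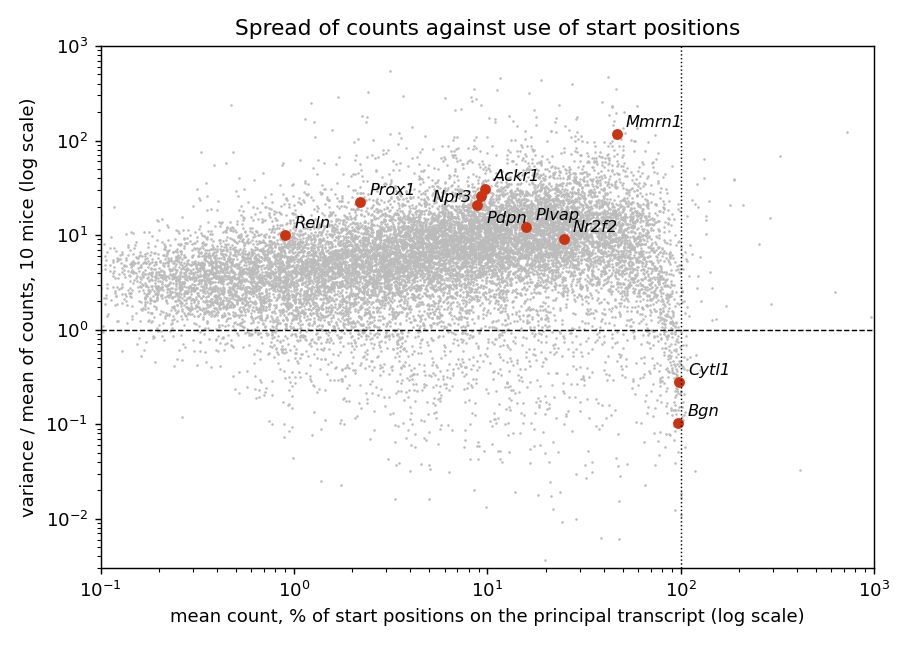
Variance divided by mean of the counts over 10 mice (log axis) against the mean count as a percent of the possible read start positions on the principal transcript (log axis), for the tested genes in gray and the 10 markers in red (dashed line, variance equal to the mean, and dotted line, 100% of positions). Bgn and Cytl1 sit at the dotted line with ratios of 0.103 and 0.281, and the other 8 markers lie above the dashed line at lower use of positions.

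The other endocardial marker did not have such a fixed count. Npr3 (ENSMUSG00000022206.6, chr15:11839896-11907287, minus strand), the clearance receptor that takes natriuretic peptides out of the circulation, had 101, 92.6, 122, 139 and 119 CPM in the control mice and 98.0, 108, 131, 104 and 81.0 CPM in the ketogenic mice. Ketogenic mouse 5 was the lowest and control mouse 4 the highest of the 10. The log2 fold change was -0.13 ± 0.128 (SE, n = 5 per diet) with an interval of -0.41 to 0.14 and an adjusted p of 0.617 by edgeR. Leaving out ketogenic mouse 5 moved it to -0.05 and leaving out control mouse 4 to -0.06.

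The lymphatic markers differed in the sign of their fold changes. Prox1 (ENSMUSG00000010175.13, chr1:190118035-190170714, minus strand), the transcription factor that sets and keeps lymphatic identity, had 24.3, 28.1, 39.0, 38.4 and 28.9 CPM in the control mice and 21.4, 40.6, 35.5, 28.3 and 15.4 CPM in the ketogenic mice. Both the highest and the lowest mouse ate the ketogenic diet. The log2 fold change was -0.17 ± 0.234 (SE, n = 5 per diet, edgeR adjusted p = 0.743), with an interval of -0.68 to 0.34, and without ketogenic mouse 5 it was -0.01. Prox1 is also expressed in cardiomyocytes. An antisense gene, Prox1os, overlaps its exons and had 1 to 24 reads per mouse.

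Reln (ENSMUSG00000042453.14, chr5:21884454-22344702, minus strand), the secreted glycoprotein reelin that lymphatic ECs release, stood at 16.2, 15.5, 23.5, 23.0 and 16.0 CPM in the control mice and 13.6, 19.9, 22.9, 19.8 and 11.1 CPM in the ketogenic mice. Its lowest and its second lowest mouse were ketogenic mice 5 and 1, as for Prox1. Gm10475, on the other strand, overlaps the exons of Reln and had 0 to 3 reads per mouse. The log2 fold change of Reln was -0.11 ± 0.202 (SE, n = 5 per diet, edgeR adjusted p = 0.812), and without ketogenic mouse 5 it was 0.02.

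Mmrn1 (ENSMUSG00000054641.10, chr6:60924976-60989378, plus strand) encodes multimerin 1, an adhesive protein of lymphatic ECs and of platelets. It had 293, 289, 418, 403 and 299 CPM in the control mice and 345, 397, 422, 424 and 270.4 CPM in the ketogenic mice. Control mice 3 and 4 stood with ketogenic mice 2, 3 and 4, and ketogenic mouse 5 was the lowest. The means were 340.3 ± 64.2 and 372 ± 65.0 CPM (SD, n = 5 per diet), and the log2 fold change was 0.13 ± 0.140 (SE, edgeR adjusted p = 0.671). Counts came to 35.7% to 57.2% of its 8856 start positions, and after correction for them the log2 fold change was 0.19. With the cardiomyocyte or the fibroblast marker score as a covariate the sign turned, to -0.21 and -0.08. The 6 platelet markers summed to 431 to 717 CPM on the control diet and 196 to 515 on the ketogenic diet. All 6 fold changes were below 0, and 0 were called. An unadjusted p under 0.05 was found for 5, where 9.26% of all tested genes had one with a lower level. Over the 10 mice Mmrn1 and that sum had a Pearson r of -0.14 (permutation test, p = 0.687, adjusted over 21 relations p = 0.721; Spearman's rho -0.08; -0.20 without the 2 mice farthest from the median). Within the diets r was 0.71 for the control and -0.26 for the ketogenic mice.

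Pdpn (ENSMUSG00000028583.14, chr4:143267431-143299564, minus strand) encodes podoplanin, the glycoprotein on lymphatic ECs that binds the platelet receptor CLEC-2 and is also found on mesothelial cells and some fibroblasts. The control mice had 23.3, 18.0, 29.4, 26.9 and 18.1 CPM and the ketogenic mice 29.3, 30.3, 34.8, 38.3 and 21.1 CPM. Of the ketogenic mice, 3 lay above every control mouse, 1 lay just under the highest control mouse, and ketogenic mouse 5 was among the control values. The means were 23.1 ± 5.11 and 30.7 ± 6.50 CPM (SD, n = 5 per diet), a log2 fold change of 0.41 ± 0.176 (SE; edgeR p = 0.0377, adjusted p = 0.247; two-sided exact permutation test, p = 0.0873). It had the lowest edgeR p of the 10 markers and still did not pass edgeR's test.

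Marker lists of other cells that carry Pdpn were set beside that value. The summed fibroblast markers were 602 to 672 CPM on the control diet and 587 to 702 on the ketogenic diet, with 6 of 8 fold changes above 0 and none called (edgeR; 0 at an unadjusted p under 0.05). Pdpn followed that sum from mouse to mouse, with r = 0.78 over 10 mice (permutation test, p = 0.0101, adjusted p = 0.0304; rho 0.75, adjusted p = 0.0571) and 0.77 without the 2 mice farthest from the median. The mesothelial markers went the other way (r = -0.76, permutation test, p = 0.00678, adjusted p = 0.0265; rho -0.78; -0.73 without the 2 farthest mice), but 94.3% of their sum was Wt1 and only 2 of the 6 genes could be tested, while 3 were at 0 reads in at least 1 mouse. Their sum was 95.5 to 138 CPM on the control diet and 65.8 to 98.1 on the ketogenic diet. The 2 tested genes differed in sign, with log2 fold changes of -0.36 for Wt1 and 0.53 for Krt19 (edgeR adjusted p = 0.170 and 0.511). Krt19 was named after its values were seen. With the cardiomyocyte or the fibroblast marker score as a covariate the log2 fold change of Pdpn was 0.09 or 0.11. Of the genes behind these scores, all 8 cardiomyocyte and 6 of 8 fibroblast markers had fold changes above 0. Score and diet may thus not be independent in these models. The part of fibroblast or cardiomyocyte RNA in the difference of Pdpn was not tested.

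Across mice, 4 of the 6 pairs of lymphatic markers were correlated past the threshold by Pearson's r. Prox1 and Reln had r = 0.93 over the 10 mice (permutation test, p = 2.3e-04, adjusted over 21 relations p = 0.00346; rho 0.87), 0.92 without the 2 mice farthest from the median, 0.93 among the control mice and 0.93 among the ketogenic mice. Mmrn1 and Pdpn had r = 0.88 (permutation test, p = 0.00146, adjusted p = 0.0102) and rho 0.88. Reln and Mmrn1 had r = 0.86 (permutation test, p = 0.00261, adjusted p = 0.0137) and rho 0.76 (permutation test, adjusted p = 0.0549), so rho did not pass for them. Prox1 and Mmrn1 had r = 0.74 (permutation test, p = 0.0135, adjusted p = 0.0354; rho 0.61, adjusted p = 0.128), and the value without the 2 farthest mice was 0.62. The pairs Reln with Pdpn (r = 0.58, permutation test, adjusted p = 0.153) and Prox1 with Pdpn (r = 0.38, permutation test, adjusted p = 0.360) did not pass. After the diet means were subtracted, r for the 6 pairs ran from 0.69 to 0.96. All of these values share libraries and their normalization. With the log2 effective library size, log2 CPM had r = -0.61 for Prox1, -0.57 for Reln, -0.34 for Mmrn1 and -0.17 for Pdpn, as a description. High values between markers were not limited to the lymphatic pairs. As a description of pairs outside the tested relations, picked after the values were seen, Prox1 had r = 0.82 with Npr3 and 0.78 with Plvap, Reln had 0.87 with Npr3 and 0.84 with Plvap, and Plvap had 0.85 with Npr3. Npr3 and Plvap had r = -0.59 and -0.75 with library size.

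**Figure D4:**
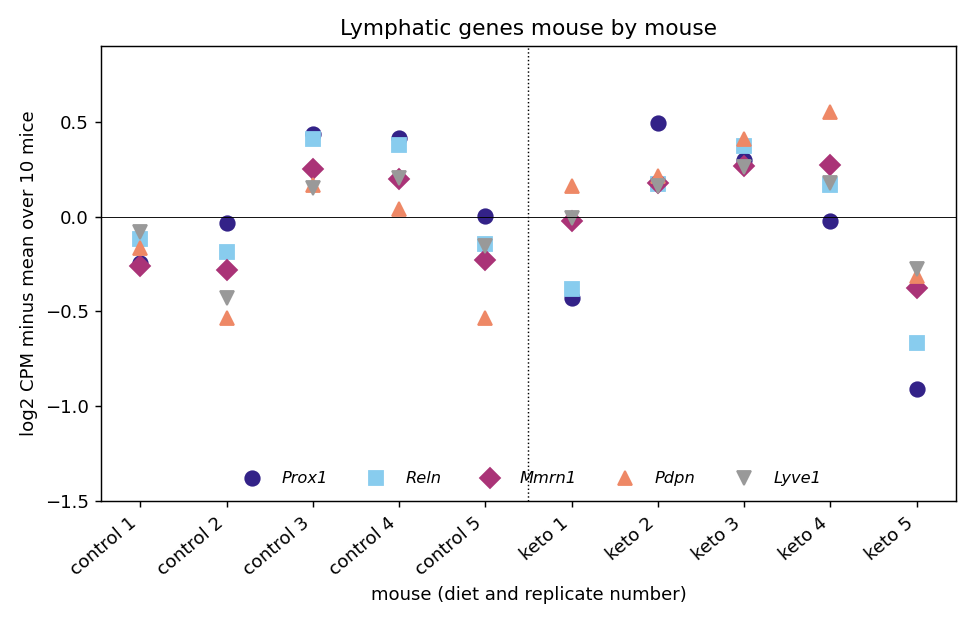
Log2 CPM of the 4 lymphatic markers and of Lyve1, each minus its own mean over the 10 mice, with the mice ordered by diet and replicate number and the dotted line between the diets. Control mice 3 and 4 and ketogenic mice 2 and 3 are above 0 for all 5 genes, and control mice 1 and 2 and ketogenic mouse 5 are below 0 for all 5, so each diet holds mice of both kinds.

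To let a reader compare the 4 lymphatic genes, of which some pairs were correlated across mice and others not, their promoters are shown as the 250 bases before the start of each gene in RefSeq (GRCm38.p6), 5′ to 3′ on the strand of the gene. Capitals mark matches, on either strand, to AGGTCA (a half-site of nuclear receptors such as Nr2f2), ACAAT (the core of SOX factor sites) and CCGGAA (an ETS factor core). RefSeq places the start of Mmrn1 inside the span given above. The stretch shown for Mmrn1 thus lies within the gene as placed there and cannot be taken as its promoter. An entry was found for 9 of the 10 markers.
Prox1, chr1:190170828-190171077, minus strand: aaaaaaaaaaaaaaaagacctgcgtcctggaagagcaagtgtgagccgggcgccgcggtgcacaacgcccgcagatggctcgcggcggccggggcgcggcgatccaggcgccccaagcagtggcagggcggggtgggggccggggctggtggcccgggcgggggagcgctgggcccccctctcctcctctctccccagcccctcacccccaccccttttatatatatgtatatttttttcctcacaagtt
Reln, chr5:22344706-22344955, minus strand: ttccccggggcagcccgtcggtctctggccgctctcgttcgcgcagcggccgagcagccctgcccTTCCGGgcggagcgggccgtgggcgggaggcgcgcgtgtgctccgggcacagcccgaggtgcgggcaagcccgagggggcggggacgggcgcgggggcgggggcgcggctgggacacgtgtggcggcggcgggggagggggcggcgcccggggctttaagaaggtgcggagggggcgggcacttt
Mmrn1, chr6:60944067-60944316, plus strand: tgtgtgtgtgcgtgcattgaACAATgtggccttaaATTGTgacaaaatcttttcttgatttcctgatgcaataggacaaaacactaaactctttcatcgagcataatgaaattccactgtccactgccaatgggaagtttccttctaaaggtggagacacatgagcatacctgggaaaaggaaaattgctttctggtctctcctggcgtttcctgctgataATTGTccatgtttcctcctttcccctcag
Pdpn, chr4:143299565-143299814, minus strand: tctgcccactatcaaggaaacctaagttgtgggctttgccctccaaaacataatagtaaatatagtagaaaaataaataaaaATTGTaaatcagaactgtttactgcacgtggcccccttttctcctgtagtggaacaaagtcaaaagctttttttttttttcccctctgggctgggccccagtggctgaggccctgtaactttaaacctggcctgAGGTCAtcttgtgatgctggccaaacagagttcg

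None of the 3 motifs was matched in all 4 sequences, and ACAAT was matched in those of Mmrn1 and Pdpn. The Prox1 promoter (64.8% GC) held none of the 3 motifs, and that of Reln (80.0% GC) held 1 CCGGAA, read here as its reverse complement. The Mmrn1 stretch (42.4% GC), which lies within the gene span, held 3 matches to ACAAT. The Pdpn promoter (43.2% GC) held 1 to ACAAT and 1 to AGGTCA. Of 32851 promoters of the same length, 27.7% held ACAAT, 14.0% AGGTCA and 12% CCGGAA. A match is only a run of letters, and the absence of one says nothing of the factor.

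Among the venous members, Bgn and Plvap had r = 0.79 over the 10 mice (permutation test, p = 0.00757, adjusted p = 0.0265; rho 0.81; 0.75 without the 2 farthest mice), a value that involves the nearly fixed count of Bgn. Nr2f2 had r = 0.15 with Bgn and 0.11 with Plvap, and Ackr1 had r = 0.48 with Nr2f2 and 0.56 with both Bgn and Plvap, none of which passed the permutation test (smallest adjusted p = 0.154). Ackr1, which is also carried by red blood cells, had r = -0.52 with the 6 erythroid markers (permutation test, adjusted p = 0.186), -0.22 without the 2 farthest mice, -0.66 within the control and 0.53 within the ketogenic diet, so that no relation held. Of that sum 70.1% was Alas2, and Hba-a1 had 97 or 98 reads in every mouse. The sum was 259 to 315 CPM on the control diet and 289 to 304 on the ketogenic diet. Bgn had r = 0.26 with the fibroblast markers (permutation test, adjusted p = 0.577).

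The endocardial pair Npr3 and Cytl1 had r = 0.67 (permutation test, p = 0.0343, adjusted p = 0.0801) and rho 0.66, which did not pass. The value was 0.26 without the 2 farthest mice, 0.53 within the control and 0.76 within the ketogenic diet. It involves the nearly fixed count of Cytl1. Cytl1 followed the 4 atrial cardiomyocyte markers (r = 0.92, permutation test, p = 3.3e-04, adjusted p = 0.00346; rho 0.85; 0.93 without the 2 farthest mice). Both sides of that relation fell with library size, the atrial sum with r = -0.90. Npr3 had r = 0.65 with the atrial sum (permutation test, adjusted p = 0.0958). The atrial sum ran from 13.4 to 34.8 CPM on the control diet and from 12.8 to 36.9 on the ketogenic diet, and none of the 4 genes was at 0 in any mouse.

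Several fold changes shifted when the cardiomyocyte marker score was put in the model. That score is a mean of standardized log2 CPM and not the summed CPM. All 8 of its genes had fold changes above 0, so score and diet are not independent in this model. With it the log2 fold changes were -0.57 for Plvap, -0.72 for Prox1, -0.66 for Reln and -0.46 for Npr3. The unadjusted p-values were 5.43e-04, 0.0186, 0.00566 and 0.00332, and the adjusted ones 0.0988, 0.328, 0.230 and 0.190, by edgeR. Ketogenic mouse 5, which had the most reads of the 10 libraries (12710861), was the lowest of all mice for Plvap, Bgn, Prox1, Reln, Mmrn1, Npr3 and Cytl1. No marker passed in the cardiomyocyte model, in which 22 of all tested genes did. Prox1 itself had r = 0.23 with the summed cardiomyocyte markers over all mice (permutation test, p = 0.528, adjusted p = 0.616; rho 0.36), 0.92 within the control diet and 0.59 within the ketogenic diet. The part of cardiomyocyte RNA in these fold changes was not tested.

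On the length-adjusted RPKM scale, as the mean over 10 mice, the order was Cytl1 (84.9), Mmrn1 (48.4), Bgn (38.3), Nr2f2 (33.2), Plvap (26.3), Npr3 (15.8), Pdpn (12.4), Ackr1 (7.62), Prox1 (2.94) and Reln (0.505). Every mouse had more Cytl1 than any mouse had Mmrn1, more Plvap than Npr3, and more Prox1 than Reln, and the other neighbors in this order overlapped between mice. The deposited lengths are longer than the principal transcripts, by the largest ratio for Bgn (10360 against 2419 bases). Per kilobase of principal transcript Bgn came first with 164 CPM, then Cytl1 with 160.2, Mmrn1 with 79.5 and Nr2f2 with 42.3, and Prox1 (3.79) and Reln (1.55) stayed last. Mmrn1 was the most abundant lymphatic marker on both scales. For Bgn and Cytl1 these levels rest on the nearly fixed counts described above.

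Wider marker lists for each vessel type were read from the same fit. Of 12 other venous genes, all tested, 0 passed edgeR's test, 3 had p under 0.05 before adjustment with a lower level on the ketogenic diet and 2 with a higher level, and the median log2 fold change was -0.09. Of all tested genes, 9.26% had such a p with a lower and 8.57% with a higher level. The 3 lower were Vwf, Selp and Vcam1, and the 2 higher were Nrp2 (0.19) and Aplnr (0.15), the last pair named after their values were seen. Selp, the P-selectin that captures rolling leukocytes on venules, had 207, 214, 222, 182 and 194 CPM in the control mice and 149, 209, 159, 166 and 161 CPM in the ketogenic mice. The levels of 4 ketogenic mice were below every control mouse, and ketogenic mouse 2 stood among the controls. The log2 fold change was -0.27 ± 0.0849 (SE, n = 5 per diet, edgeR adjusted p = 0.130; two-sided exact permutation test, p = 0.0317). DESeq2 gave an adjusted p of 0.0411, and without ketogenic mouse 2 edgeR gave -0.36 with an adjusted p of 0.0137, so that the call for Selp depended on the tool and on 1 mouse. DESeq2's Wald test called 815 of all tested genes and edgeR without ketogenic mouse 2 called 492, where the main fit called 213. Platelets store P-selectin and von Willebrand factor too, and the 6 platelet markers had a median log2 fold change of -0.84 (6 of 6 below 0, 0 called). The part of platelet RNA in the values of Selp and Vwf was not tested.

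Vwf, the von Willebrand factor that tethers platelets, had means of 839 ± 43.5 and 776 ± 34.9 CPM (SD, n = 5 per diet) and a log2 fold change of -0.11 ± 0.0406 (SE, edgeR adjusted p = 0.175). Vcam1, the adhesion molecule for lymphocytes and monocytes, had a log2 fold change of -0.12 ± 0.0415 (SE, edgeR adjusted p = 0.156), with counts at 98.0% of its start positions on average, and -0.39 after correction for them. Its counts reached 7100 on the control diet, above the cap of that correction, and 6703 on the ketogenic diet, below it, for 6840 positions. The corrected value of Vcam1 therefore depends on the cap. Ephb4, the receptor of venous ECs for the arterial ligand ephrin-B2, had 0.12 (edgeR adjusted p = 0.381).

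Of 15 other lymphatic genes 14 were tested and none passed edgeR's test. Of these 14, 1 had an unadjusted p under 0.05, where 17.8% of all tested genes had one. It was Stab2, a scavenger receptor with 13 to 52 reads per mouse. The median log2 fold change of the 14 was 0.05, with 8 above and 6 below 0. Lyve1, the hyaluronan receptor of lymphatic ECs and of some macrophages, had 182 ± 30.8 and 197 ± 27.6 CPM (SD, n = 5 per diet) and a log2 fold change of 0.12 (edgeR adjusted p = 0.641). Flt4, the receptor for the lymphatic growth factor VEGF-C, had -0.04 (edgeR adjusted p = 0.786), and Ccl21a, the chemokine that draws dendritic cells into lymphatics, had 39.4 ± 2.04 and 39.3 ± 2.07 CPM and a log2 fold change of -0.0016 (edgeR adjusted p = 0.992). Its count too was nearly fixed, at 437 to 477 reads with a variance of 0.413 times the mean and r = -0.82 with library size. As a description over the 10 mice, Lyve1 had r = 0.93 with Mmrn1, 0.88 with Pdpn, 0.79 with Reln and 0.64 with Prox1, the highest r with Mmrn1 and with Pdpn among the 14 tested companions. Flt4 had between 0.31 and 0.45 with the 4 markers and Foxc2, a transcription factor of lymphatic valves, between 0.02 and 0.22. Values below 0 were found for Sox18 (-0.10 with Prox1 and -0.21 with Reln) and Scn3b (-0.21 to -0.03 with the 4 markers). Macrophage markers summed to 111 to 554 CPM on the control diet and 96.1 to 204 on the ketogenic diet. All 6 fitted fold changes were below 0, and 0 were called. An unadjusted p under 0.05 was found for 3, where 9.26% of all tested genes had one with a lower level. The top of the control range was control mouse 1, with 2198 reads of Adgre1 where the control median was 143 and 299 of C1qa where it was 16, and by the two-sided exact permutation test p was 0.270 for Adgre1 and 0.532 for C1qa.

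Of 10 other endocardial genes 9 were tested and none passed edgeR's test. Of these 9, 2 had an unadjusted p under 0.05, both lower on the ketogenic diet, where 9.26% of all tested genes were so. The median log2 fold change of the 9 was -0.12, with 7 of 9 below 0. Nfatc1, the transcription factor of the endocardium and its valves, had 217, 188, 191, 205 and 190 CPM in the control mice and 190, 175, 165, 193 and 188 CPM in the ketogenic mice, which overlapped, with a log2 fold change of -0.12 ± 0.0541 (SE, n = 5 per diet, edgeR adjusted p = 0.271). Smoc1, a secreted matricellular protein, had -0.28 ± 0.156 (SE, edgeR adjusted p = 0.379), and the adhesion receptor Adgrg6 had 0.20 ± 0.136 (SE, edgeR adjusted p = 0.478). Tmem100, the second of the pair, had -0.18 (edgeR adjusted p = 0.251) and was named after its values were seen.

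The genes whose levels followed each marker most closely over the 10 mice were sought among the 12377 tested genes that averaged 50 or more reads, as a description. Aldh1a1, an enzyme that makes retinoic acid, came first for both Prox1 (r = 0.94) and Reln (r = 0.95), and each of the pair was in the other's top 3 (r = 0.93), joined by Eml6 (r = 0.92) for Prox1 and by Dync2li1 (r = 0.93) for Reln. Prelp, a matrix proteoglycan, was in the top 3 of both Mmrn1 (r = 0.95) and Pdpn (r = 0.93). The others were Lcn2 (r = 0.95) and Lbp (r = 0.94), which bind bacterial products, for Mmrn1, and Commd3 (r = 0.92) and Casp6 (r = 0.90) for Pdpn.

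Npr3 was followed by Tgoln1 (r = 0.95), Ephx2 (r = 0.93) and Cgnl1 (r = 0.93), and Plvap by Gpm6a (r = 0.94) and Vcam1 (r = 0.93), among others. For Ackr1 the top genes were Olfm1 (r = 0.94), Mcmbp (r = 0.91) and Aplf (r = 0.89), and for Nr2f2 they were Pdik1l (r = 0.91), Ankrd49 (r = 0.86) and Mrpl19 (r = 0.85). Bgn and Cytl1 were different. The genes most like Bgn were Aplp2, Ctsd and mt-Co1 (r = 0.998, 0.998 and 0.997), whose counts also varied less than counting noise, with a variance of 0.10, 0.0679 and 0.0062 times the mean at 101%, 92.1% and 47.9% of their start positions. Those most like Cytl1 were Efna1, Sap18b and Gm1840 (r = 0.99 each), with ratios of 0.284, 0.0587 and 0.0839 at 95.6%, 17.4% and 27.5% of their positions. Nearly fixed counts were thus also found well below the number of start positions as counted here. That number follows from transcript length alone and takes no account of where reads map to a single place. Of the genes in these lists, none passed edgeR's test between the diets.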

How the data were processed

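RNA of CD31+ heart cells was sequenced as single reads of 50 bases, with SMART-Seq v4 libraries that do not record strand. The submitters' processing notes name bcl2fastq 2.17.1.14, STAR 2.3, HTSeq 0.6.0 and mm10, and the annotation release and any removal of duplicate reads are not given in the sources used here. The authors deposited raw counts of reads per gene, with no normalization. The authors also deposited RPKM values, the same counts divided by gene length and library total.

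Columns were assigned to diets by the titles in the labels. Symbols and positions came from GENCODE M21 on GRCm38 (46488 of 46983 identifiers). The test between diets was the quasi-likelihood F-test of edgeR 4.0.16 (R 4.3.3, TMM, filterByExpr, 15949 genes, Benjamini-Hochberg), and standard errors were derived from each gene's F and log2 fold change. Single genes were also tested by exact permutation over the 252 groupings of 10 mice, with a smallest p of 0.00794. Correlations used log2 CPM with a prior count of 2 and 100000 permutations in SciPy 1.17.1, two-sided, adjusted over 21 relations. Where r was given without 2 mice, these were farthest from the median of the pair's first gene, or of the gene set beside a summed list.

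Named genes were the 10 markers, any called gene of the companion lists (none was), 10 companion genes set by name, and for each marker the 3 genes with the highest r. A single gene that meets this rule is not reported here. The markers and all lists were chosen with earlier results of these data known. Alternatives were DESeq2 1.42.0 size factors and Wald test, upper quartile factors, library size alone, other filters (none, or at least 10 counts in every mouse), limma 3.58.1 on log2 of RPKM plus 1 or 0.1, a replicate block, cardiomyocyte or fibroblast marker scores as covariates, each mouse left out in turn and, added after the data had been seen, counts corrected for read start positions. The test was run on simulated data before use. Libraries differed from each other by more than counting noise (chi-square per degree of freedom of 4.31 to 9.02 within a diet), so no pair within a diet was 1 library deposited again.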

Additional observations from a re-analysis of the deposited data

Results flagged for a closer look

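Of 66 sets of 5 values compared (a gene or marker sum in one diet), 4 held a mouse whose gap to its nearest neighbor, as a share of the whole range of the 5, was above Dixon's limit of 0.71. Chance alone gives about 1 in 20, here 3.3.

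Control mouse 5 was low for Ackr1 (7.52 CPM, next lowest 22.1, share 0.724). Ketogenic mouse 2 was high for Selp (209 CPM, next highest 166, share 0.720). The summed macrophage markers were high in control mouse 1 (554 CPM, next 205, share 0.789) and in ketogenic mouse 4 (204 CPM, next 109, share 0.884).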

How the results depend on the processing

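None of the 10 markers passed under any of 22 alternatives. Of 637 values recomputed over 23 settings, 18 were fold changes of single genes that changed sign. The number of genes called among all tested, 213, was 815 with DESeq2's Wald test, 22 with the cardiomyocyte covariate, 41 with the fibroblast covariate and 86 (without control mouse 2) to 492 (without ketogenic mouse 2) with each mouse left out. With the replicate block it was 113, of which 90 were shared. The replicate numbers did not pair the mice (same-number correlations of deviations from -0.13 to 0.09, and no control mouse correlated best with its own number), and the block called 0 markers. The causes of these shifts were not tested.

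Sign changes of single genes were as follows. Ccl21a (-0.0016) was 0.0036 with DESeq2 size factors, 0.011 with library size alone, 0.0013 without a filter, 0.0035 with DESeq2's Wald test, 0.010 and 0.011 on log2 RPKM plus 1 and plus 0.1, and from -0.026 to 0.032 with each mouse left out. With the cardiomyocyte and the fibroblast covariate, Mmrn1 (0.13) was -0.21 and -0.080, and Lyve1 (0.12) was -0.16 and -0.047. With each mouse left out, Flt4 (-0.04) ran from -0.090 to 0.0022 (without control mouse 4) and Reln (-0.11) from -0.22 to 0.019 (without ketogenic mouse 5). The median of the other lymphatic genes (0.05) was -0.030 with the cardiomyocyte and -0.0068 with the fibroblast covariate. The correlation of Ackr1 with the erythroid markers (-0.52) was -0.30 on the RPKM scale.

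The counts of Bgn and Cytl1 varied less than counting noise, and the cause was not tested. Reln, Pdpn, Ackr1 and Prox1 rest on 87 to 458 reads per mouse, and with 5 mice per diet their intervals stayed wide, from -1.19 to 0.25 on the log2 scale for Ackr1 and from -0.68 to 0.34 for Prox1.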
